A study of Mus musculus with 6 samples.

Results

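The genes described here are 10 members of the fibroblast growth factor (FGF) family, chosen by name from the 27179 genes counted: the ligands Fgf2, Fgf5, Fgf7, Fgf9, Fgf10, Fgf18 and Fgf21 and the receptors Fgfr1, Fgfr2 and Fgfr3. All 10 were present in the count data under their Entrez Gene identifiers, and 5 of them (Fgf7, Fgf10, Fgfr1, Fgfr2 and Fgfr3) reached the mean of 100 normalized counts at which genes were tested. RNA was measured by RNA-seq in 3 immortalized mouse embryonic fibroblast (MEF) lines of strain C57BL/6, with 2 libraries per line. Cry/Per_KO cells lack Cry1, Cry2, Per1 and Per2, Per/Nr1d_KO cells lack Per1, Per2, Nr1d1 and Nr1d2, and Cry/Per/Nr1d_KO cells lack all 6 of these clock genes. CRY and PER proteins repress the activator CLOCK-BMAL1, and the nuclear receptors NR1D1 and NR1D2 repress the gene of BMAL1. Every line lacked Per1 and Per2, and no wild-type cells were sequenced, so each value compares one knockout line with another. Cry/Per/Nr1d_KO cells are 1 clone isolated after lentiviral CRISPR mutation of Cry/Per_KO cells, and Per/Nr1d_KO cells are a separate line. The effect of a missing clock gene and a difference between lines or clones therefore cannot be told apart. The libraries of a line come from independent experiments on that line, and p-values measure the spread between these.

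For the Cry/Per_KO and Cry/Per/Nr1d_KO libraries, the genotype label and the name given to the deposited counts disagree, each assigning the other line. Each pair is named here by its genotype label, as "labelled Cry/Per_KO" and "labelled Cry/Per/Nr1d_KO", and all 3 pairwise comparisons are given. Exchanging the labels would reverse the sign of the comparison between these pairs, and would exchange which of them is the reference in the comparisons with Per/Nr1d_KO. The deleted genes gave counts in every library, as mutated alleles can be transcribed, and the RNA of all 6 was higher in the pair labelled Cry/Per_KO than in the pair labelled Cry/Per/Nr1d_KO. Nr1d1 was at 3158 and 3146 normalized counts for the pair labelled Cry/Per/Nr1d_KO, 9337 and 9249 for the pair labelled Cry/Per_KO, and 5359 and 4838 for Per/Nr1d_KO. Arntl, the gene of BMAL1 that NR1D proteins repress, had 1192 and 1171 normalized counts for the pair labelled Cry/Per/Nr1d_KO, 2176 and 2208 for the pair labelled Cry/Per_KO, and 2493 and 2455 for Per/Nr1d_KO. The pair labelled Cry/Per_KO, whose label leaves Nr1d1 and Nr1d2 intact, was thus 1.86-fold above the pair labelled as lacking them (adjusted p = 2.4e-09, edgeR) and near the level of Per/Nr1d_KO. This order goes against the genotype labels of these 2 pairs and is that of the names of the deposited counts, so the direction of every difference between them, as labelled, is in doubt. Library totals ran from 53764390 to 85927236 counts. A normalized count is a count scaled by edgeR's TMM factors to the mean effective library size of 65881749.

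FGF ligands are secreted proteins that bind receptor tyrosine kinases together with heparan sulfate chains on the cell surface. The activated receptor recruits the adaptor FRS2 and switches on the RAS-ERK cascade, which induces ETS transcription factors and also the Sprouty and DUSP proteins that restrain the same cascade. FGF7 and FGF10 are typically made by mesenchymal cells and act on the epithelial IIIb splice form of FGFR2, while fibroblasts usually make the IIIc forms of the receptors. FGF2 is a broad fibroblast mitogen, FGF5 limits hair growth, FGF9 and FGF18 act in skeletal and lung development, and FGF21 is a metabolic hormone that signals with the coreceptor beta-Klotho.

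Since CLOCK-BMAL1 binds the E-box CACGTG and NR1D proteins bind sites with the core AGGTCA, the promoters of the members were searched for both motifs, on both strands (CACGTG reads the same on each, and the motifs did not overlap). RefSeq promoter windows of 300 bases on GRCm38.p6, which run across an annotated start site, were at hand for 9 of the 10 members, Fgfr1 being the exception. CACGTG was found in the windows of Fgfr2 (28 bases after the start) and Fgf21 (50 bases before it), and in 7.15% of 32841 promoter windows of all genes. AGGTCA was found in the window of Fgf7 (47 bases before the start) and in 16.3% of all windows. Neither motif was present in the windows of Fgf2, Fgf5, Fgf9, Fgf10, Fgf18 or Fgfr3. The windows of Fgfr2 and Fgf21 are shown for the E-box (in capitals), and that of Fgf10 as the tested ligand that differed most among the lines. They lie at chr7:130266759-130267058 (minus strand), chr7:45615441-45615740 (minus strand) and chr13:118714449-118714748 (plus strand), and are written 5′ to 3′ along the gene. A match in letters is a description of the sequence and not a measured binding site.
Fgfr2: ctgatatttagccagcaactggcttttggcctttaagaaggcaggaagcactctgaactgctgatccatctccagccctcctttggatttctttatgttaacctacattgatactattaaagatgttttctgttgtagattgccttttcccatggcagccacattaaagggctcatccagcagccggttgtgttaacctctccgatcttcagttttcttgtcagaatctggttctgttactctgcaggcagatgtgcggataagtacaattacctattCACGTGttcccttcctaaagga
Fgf21: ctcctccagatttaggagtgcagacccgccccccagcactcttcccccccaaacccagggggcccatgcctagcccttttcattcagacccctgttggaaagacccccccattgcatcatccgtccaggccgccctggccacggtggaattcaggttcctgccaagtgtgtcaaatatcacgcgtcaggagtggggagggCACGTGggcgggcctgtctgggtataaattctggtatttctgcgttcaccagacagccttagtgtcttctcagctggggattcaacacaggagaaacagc
Fgf10: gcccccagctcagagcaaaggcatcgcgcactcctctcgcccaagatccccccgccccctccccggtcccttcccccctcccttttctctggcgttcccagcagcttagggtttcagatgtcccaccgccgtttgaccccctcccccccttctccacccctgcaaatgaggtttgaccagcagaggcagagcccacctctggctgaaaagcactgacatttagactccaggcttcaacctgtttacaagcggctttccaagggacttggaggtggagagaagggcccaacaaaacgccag

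To set genes side by side, normalized counts were divided by the exon length in GENCODE vM21. The gene models used for counting may differ from these, so levels per kb are approximate. Averaged over the 6 libraries, Fgf7 stood at 5136 normalized counts per kb and Fgfr1 at 1833, and the lowest Fgf7 library (3875) was above the highest Fgfr1 library (2168). Fgfr2 followed at 202 per kb, Fgf10 at 107 and Fgfr3 at 67.3. The per-kb ranges over libraries of these 3 genes overlapped, from 89.4 to 324 for Fgfr2, 28.8 to 162 for Fgf10 and 38.6 to 95.6 for Fgfr3. Fgf5 (18.4 per kb), Fgf18 (15.1), Fgf2 (13.1) and Fgf21 (8.14) also had overlapping ranges. Fgf9 had the lowest mean over the 6 libraries, 0.949, but its range (0 to 1.53) overlapped those of Fgf5 and Fgf21, whose means were lower than that of Fgf9 in the pair labelled Cry/Per_KO. The order of the receptors, Fgfr1 above Fgfr2 above Fgfr3, was the same in the means of each line. In the libraries labelled Cry/Per_KO, however, the mean levels of Fgfr2 (92.3 per kb) and Fgfr3 (87.9 per kb) were close and Fgfr3 was marginally the higher in replicate 2, whereas Fgfr2 was at 319 and Fgfr3 at 75.4 per kb for the pair labelled Cry/Per/Nr1d_KO.

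**Figure D1:**
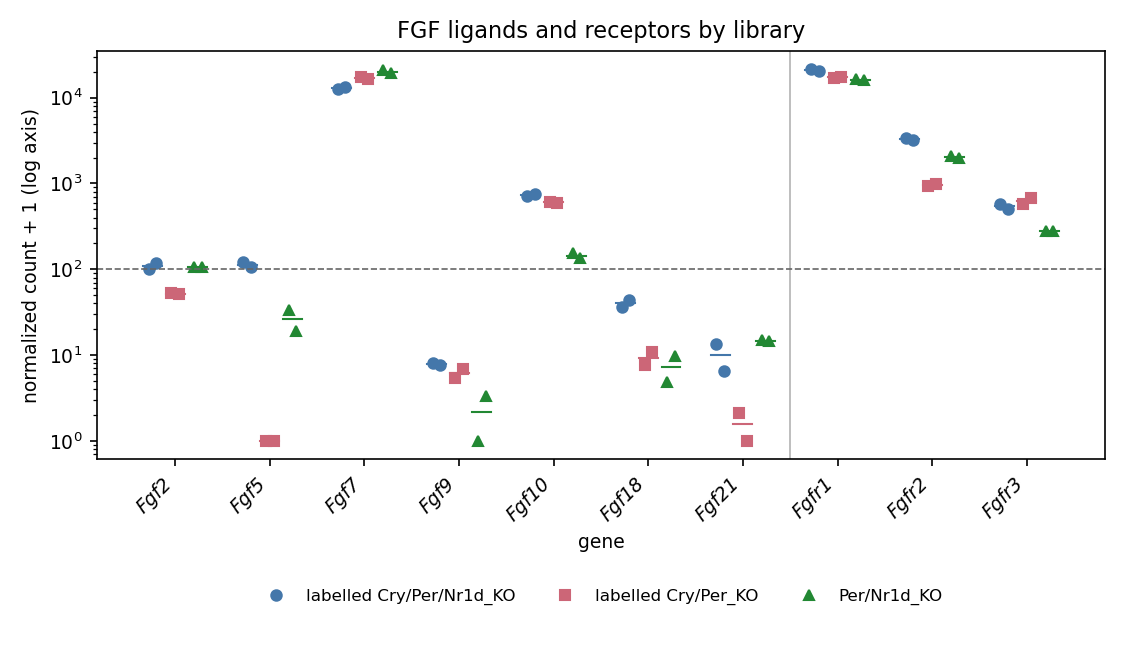
Normalized counts of the 10 FGF ligand and receptor genes in each of the 6 libraries, on a log axis, with 1 point per library and a dashed line at the mean of 100 normalized counts used as the minimum for testing. Fgf7 and Fgfr1 are the highest in every library, Fgf10 is at 133 to 155 in Per/Nr1d_KO and at 599 to 747 in the other lines, and Fgf5 is at 0 in both libraries labelled Cry/Per_KO.

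Of the tested ligands Fgf7 and Fgf10, which share a receptor, only Fgf10 was called, lower in Per/Nr1d_KO than in either other line. Fgf7 was at its highest in Per/Nr1d_KO but was called in no comparison. Fgf10 (Entrez 14165, chromosome 13 from 118714699 to 118792573) had 710.3 and 747 normalized counts for the pair labelled Cry/Per/Nr1d_KO, 603 and 599 for the pair labelled Cry/Per_KO, and 155 and 133 in Per/Nr1d_KO. Both Per/Nr1d_KO libraries were far below the other 4, and no pair of lines overlapped. The means were 729 ± 26.3, 601 ± 3.02 and 144 ± 15.6 (SD, n = 2 each). In RNA from whole cultures, fewer cells of a type and less RNA per cell cannot be told apart. In Per/Nr1d_KO, Fgf10 RNA was 5.13-fold lower than in the pair labelled Cry/Per/Nr1d_KO (log2 fold change -2.36, SE 0.10, adjusted p = 1.2e-11, quasi-likelihood test of edgeR, Benjamini-Hochberg adjustment) and 4.24-fold lower than for the pair labelled Cry/Per_KO (-2.08, SE 0.11, adjusted p = 5.2e-11). Between the latter pairs the log2 difference was -0.28 (SE 0.086, adjusted p = 0.0089), inside the fold limit, a rise of more than 75% or the same fold downwards, that was required for a call. The median gene of chromosome 13 differed by 0.22 and -0.13 in the comparisons with Per/Nr1d_KO, and with these medians subtracted the Fgf10 values were -2.58 and -1.95.

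Fgf7 (Entrez 14178, chromosome 2 from 126034658 to 126091185) was the most abundant member. It had 12584 and 13275 normalized counts for the pair labelled Cry/Per/Nr1d_KO, 17305 and 16609 for the pair labelled Cry/Per_KO, and 21024 and 19290 in Per/Nr1d_KO. The 3 lines did not overlap, with means of 12930 ± 488, 16957 ± 492 and 20157 ± 1226 (SD, n = 2 each). Fgf7 RNA was highest in Per/Nr1d_KO, the line in which Fgf10 was lowest. The log2 differences were 0.39 (SE 0.050, adjusted p = 3.9e-06) for labelled Cry/Per_KO against labelled Cry/Per/Nr1d_KO, 0.64 (SE 0.050, adjusted p = 1.2e-08) for Per/Nr1d_KO against labelled Cry/Per/Nr1d_KO, and 0.25 (SE 0.049, adjusted p = 0.00026) for Per/Nr1d_KO against labelled Cry/Per_KO. All 3 had an adjusted p under 0.05 but none reached the fold limit, and at such depth 76.4%, 75.8% and 82.1% of all tested genes had an adjusted p under 0.05 in the respective comparison.

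The remaining ligands were low, and their values rest on few counts. Fgf5 (Entrez 14176, chromosome 5 from 98254184 to 98277033) had 119 and 106 normalized counts for the pair labelled Cry/Per/Nr1d_KO and 33.0 and 18.1 in Per/Nr1d_KO, and not 1 count in either library labelled Cry/Per_KO. The lines did not overlap. With the limit that a count of 0 allows (3 counts in a library, a mean of 3.14 normalized counts), the level of Fgf5 relative to the pair labelled Cry/Per_KO was at least 8.13-fold higher in Per/Nr1d_KO, and at least 35.7-fold higher in the pair labelled Cry/Per/Nr1d_KO. When the minimum mean was lowered to 10 normalized counts (14770 genes, 8 of the 10 members), Fgf5 was 4.67-fold lower in Per/Nr1d_KO than in the pair labelled Cry/Per/Nr1d_KO (log2 fold change -2.22, SE 0.26, adjusted p = 4.8e-07).

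Fgf2 (Entrez 14173, chromosome 3 from 37348477 to 37410106) had 100.3 and 119 normalized counts for the pair labelled Cry/Per/Nr1d_KO, 51.2 and 50.1 for the pair labelled Cry/Per_KO, and 106 and 104 in Per/Nr1d_KO. The libraries labelled Cry/Per_KO were lower than the other 4, which overlapped. In the test of genes with a mean of at least 10, Fgf2 was 2.15-fold lower in labelled Cry/Per_KO than in labelled Cry/Per/Nr1d_KO libraries (log2 fold change -1.10, SE 0.19, adjusted p = 3.7e-05) and 2.07-fold higher in Per/Nr1d_KO than in labelled Cry/Per_KO libraries (1.05, SE 0.19, adjusted p = 5.3e-05). The genes of chromosome 3 as a whole moved the same way, with a median of -0.65 and 0.88 over the genes tested at 100 normalized counts. After subtraction of the chromosome medians over the genes with a mean of at least 10, the set in which Fgf2 was tested, its differences were -0.48 and 0.19, under the fold limit. Fgf2 also shares 9.44% of its exon bases with Nudt6, its antisense gene on the opposite strand, and whether the counting used strand is not given in the sources used here. Nudt6 was the more abundant of the pair, at 384 and 381 normalized counts for the pair labelled Cry/Per/Nr1d_KO, 303 and 289 for the pair labelled Cry/Per_KO, and 447 and 482 in Per/Nr1d_KO.

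Fgf18 (Entrez 14172, chromosome 11 from 33116970 to 33147400) had 35.5 and 43.3 normalized counts for the pair labelled Cry/Per/Nr1d_KO, 6.68 and 9.82 for the pair labelled Cry/Per_KO, and 3.80 and 8.68 in Per/Nr1d_KO. Both other lines were below labelled Cry/Per/Nr1d_KO and overlapped each other. The fitted log2 differences from labelled Cry/Per/Nr1d_KO were -2.21 (SE 0.40) for labelled Cry/Per_KO libraries and -2.51 (SE 0.41) for Per/Nr1d_KO, the latter being -3.32 without replicate 2 of Per/Nr1d_KO. Fgf18 reached a mean of 10 only through the line in which it is high, so these values are given without a test. Between Per/Nr1d_KO and labelled Cry/Per_KO the ratio was 0.816, with a 95% exact interval from 0.369 to 1.78 that covers counting error only.

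Fgf21 (Entrez 56636, chromosome 7 from 45613890 to 45615490) was at 12.4 and 5.55 normalized counts for the pair labelled Cry/Per/Nr1d_KO, 1.11 and 0 for the pair labelled Cry/Per_KO, and 13.9 and 13.4 in Per/Nr1d_KO. These stand for 19, 1 and 28 counts in all. From these counts Fgf21 was 18.0-fold higher in labelled Cry/Per/Nr1d_KO than in labelled Cry/Per_KO libraries (95% exact interval 2.86 to 747) and 26.1-fold higher in Per/Nr1d_KO (4.32 to 1067), intervals that cover counting error and not the spread between libraries. Klb, the beta-Klotho coreceptor of FGF21, was low in all lines, between 6.21 and 29.5 normalized counts. Fgf9 (Entrez 14180, chromosome 14 from 58070671 to 58112854) was at 7.10 and 6.66, 4.45 and 5.89, and 0 and 2.37 normalized counts, taking the lines in that order. Per/Nr1d_KO had 3 counts in all against 14 in the pair labelled Cry/Per/Nr1d_KO, a 4.73-fold difference with a 95% exact interval from 1.32 to 25.7. Fgf9 and Fgf21 were under a mean of 10 and were not tested across libraries.

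Of the receptors, Fgfr2 and Fgfr3 each passed the test in 2 of the 3 comparisons and Fgfr1 in none. Fgfr2 (Entrez 14183, chromosome 7 from 130162451 to 130266808) had 3345 and 3254 normalized counts for the pair labelled Cry/Per/Nr1d_KO, 924 and 983 for the pair labelled Cry/Per_KO, and 2066 and 1961 in Per/Nr1d_KO. The lines did not overlap, with means of 3299 ± 64.1, 953 ± 41.8 and 2013 ± 74.4 (SD, n = 2 each). Fgfr2 RNA was 3.46-fold lower in labelled Cry/Per_KO than in labelled Cry/Per/Nr1d_KO libraries (log2 fold change -1.79, SE 0.062, adjusted p = 2.5e-12) and 2.11-fold higher in Per/Nr1d_KO than in labelled Cry/Per_KO libraries (1.08, SE 0.063, adjusted p = 2.8e-10). Per/Nr1d_KO lay between these, 1.64-fold below labelled Cry/Per/Nr1d_KO (-0.71, SE 0.058, adjusted p = 2.2e-08), which is inside the fold limit. With the chromosome 7 medians subtracted the 2 called values were -1.52 and 0.92.

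Fgfr3 (Entrez 14184, chromosome 5 from 33721724 to 33737068) had 576 and 503 normalized counts for the pair labelled Cry/Per/Nr1d_KO, 574 and 684 for the pair labelled Cry/Per_KO, and 278 and 276 in Per/Nr1d_KO. The Per/Nr1d_KO libraries were below the other 4, which overlapped. Fgfr3 RNA was 1.96-fold lower in Per/Nr1d_KO than in labelled Cry/Per/Nr1d_KO libraries (log2 fold change -0.97, SE 0.11, adjusted p = 1.2e-06) and 2.28-fold lower than in labelled Cry/Per_KO libraries (-1.19, SE 0.11, adjusted p = 7.4e-08). The difference between the latter pairs was 0.22 (SE 0.10, adjusted p = 0.060). Of the exon bases of Fgfr3, 13.9% are shared with G630022F23Rik on the opposite strand, so part of its counts may belong to that gene if the counting did not use strand.

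Fgfr1 (Entrez 14182, chromosome 8 from 25518759 to 25575718), the main receptor gene of these cells by level, varied least. It had 21406 and 20296 normalized counts for the pair labelled Cry/Per/Nr1d_KO, 16865 and 17604 for the pair labelled Cry/Per_KO, and 16375 and 16040 in Per/Nr1d_KO. The lines did not overlap, but the log2 differences were -0.27 (SE 0.044, adjusted p = 4.3e-05), -0.36 (SE 0.044, adjusted p = 2.2e-06) and -0.09 (SE 0.044, adjusted p = 0.075) in the order of comparisons used for Fgf7, all inside the fold limit. The decoy receptor Fgfrl1, which binds FGFs but has no kinase domain, followed the pattern of Fgfr3. It was at 3475 and 3482 normalized counts for the pair labelled Cry/Per/Nr1d_KO, 3824 and 3822 for the pair labelled Cry/Per_KO, and 1693 and 1729 in Per/Nr1d_KO, where it was 2.03-fold and 2.23-fold lower (adjusted p = 5.4e-11 and 8.6e-12). Fgfr4 was between 0 and 6.21 normalized counts.

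**Figure D2:**
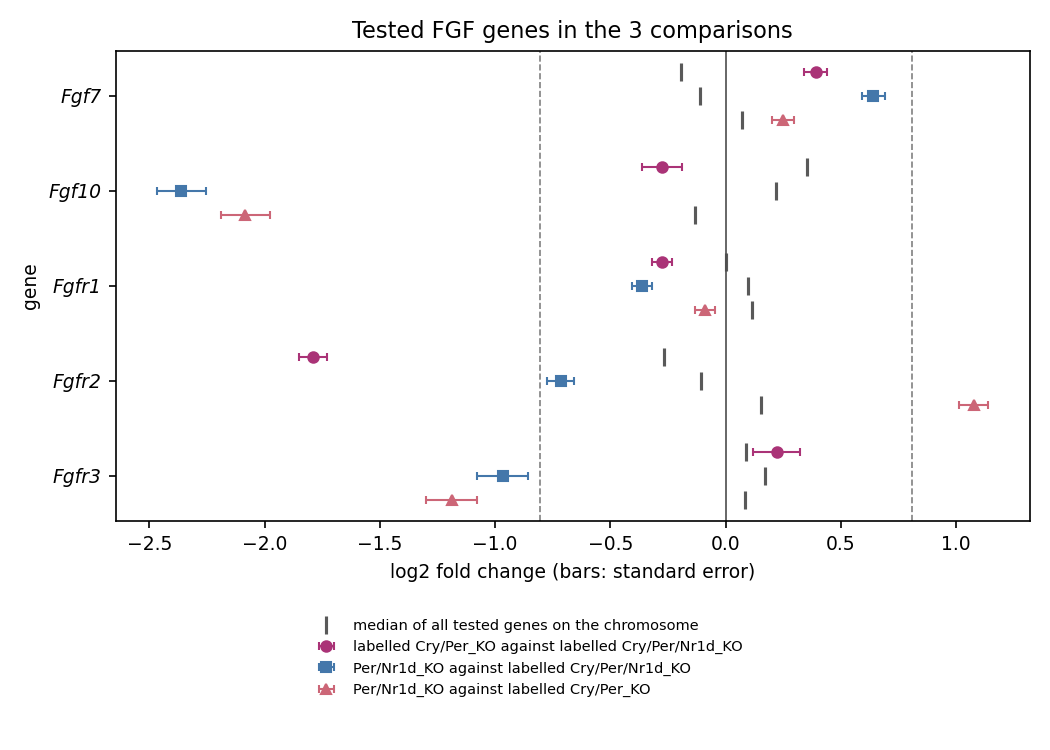
Log2 fold changes of the 5 tested members, with bars of 1 SE, in the 3 comparisons of lines, with dashed lines at the fold limits of a 75% rise and its inverse and a grey tick at the median of the gene's chromosome. Fgf10 lies at -2.36 and -2.08 in the comparisons of Per/Nr1d_KO, Fgfr2 at -1.79 in labelled Cry/Per_KO against labelled Cry/Per/Nr1d_KO, and all 3 Fgf7 and Fgfr1 values inside the limits.

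Counted over the 5 tested members, 1 was called in labelled Cry/Per_KO against labelled Cry/Per/Nr1d_KO libraries (Fgfr2, lower), where 16.8% of all genes were called. In Per/Nr1d_KO against labelled Cry/Per/Nr1d_KO libraries 2 were called (Fgf10 and Fgfr3, both lower), with 20.7% of all genes called. In Per/Nr1d_KO against labelled Cry/Per_KO libraries 3 were called (Fgfr2 higher, Fgf10 and Fgfr3 lower), with 29.0% of all genes called. The median log2 fold change of the tested members was -0.27, -0.71 and -0.09, against -0.0033, 0.011 and 0.035 over all genes. At a mean of at least 10, the 8 members tested gave 4 lower calls in each of the comparisons with labelled Cry/Per/Nr1d_KO (Fgf2, Fgf5, Fgf18 and Fgfr2 in labelled Cry/Per_KO, and Fgf5, Fgf10, Fgf18 and Fgfr3 in Per/Nr1d_KO), where 11.9% and 13.1% of all genes were lower (22.4% and 26.5% called in all). In Per/Nr1d_KO against labelled Cry/Per_KO libraries they gave 3 higher calls (Fgf2, Fgf5 and Fgfr2) and 2 lower calls (Fgf10 and Fgfr3), where 17.0% of all genes were higher and 16.8% lower (33.8% in all). Fgf18 reached that mean only through the pair labelled Cry/Per/Nr1d_KO, and without it 3 of 7 members were lower in each of the comparisons with that pair. With the labels in doubt exchanged, the first comparison would read 4 higher and 0 lower, and Per/Nr1d_KO against Cry/Per/Nr1d_KO 3 higher and 2 lower. These counts are no measure of the family as a whole. The comparisons share libraries, and their counts are not independent of each other.

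By the pattern over the 6 libraries, the genes most like Fgf10 were Lysmd2, Sipa1l3 and Zfp345 (Pearson r of log2 CPM from 0.9995 to 0.9998), and those most like Fgfr2 were Acta2, Pcsk6 and Cs (r from 0.9990 to 0.9996). Such values are a description, since the 6 libraries form 3 tight pairs, and 246 genes had an r above 0.99 with Fgf10 and 113 with Fgfr2.

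The other secreted ligands contributed little RNA. None of the 11 reached a mean of 100 normalized counts, Fgf4, Fgf16 and Fgf20 had no count in any library, and their summed level was 47.1 to 58.9 for labelled Cry/Per/Nr1d_KO, 21.1 to 32.4 in labelled Cry/Per_KO and 44.2 to 46.9 for Per/Nr1d_KO. Fgf15, a hormone of the gut in its known role, was at 16.9 and 15.5 in labelled Cry/Per/Nr1d_KO libraries and at 0 to 1.27 in the other lines. Fgf23, the phosphate-regulating hormone, had 34.2 and 28.4 normalized counts in Per/Nr1d_KO, 7.99 and 12.2 in labelled Cry/Per/Nr1d_KO and 3.34 and 4.91 in labelled Cry/Per_KO libraries. It reached a mean of 10 only through Per/Nr1d_KO, so no test is given. Of the intracellular FGF homologous factors, which are not secreted, Fgf11 was at 15.1 and 24.4, 7.79 and 11.8, and 1.27 and 1.58 normalized counts for labelled Cry/Per/Nr1d_KO, labelled Cry/Per_KO and Per/Nr1d_KO libraries, and Fgf12 had no count.

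The FGF-binding proteins and heparan sulfate cofactors held the largest differences among the lists of pathway genes. Of 24 tested, 1 rose and 9 fell in labelled Cry/Per_KO against labelled Cry/Per/Nr1d_KO libraries, 5 rose and 3 fell in Per/Nr1d_KO against labelled Cry/Per/Nr1d_KO libraries, and 10 rose and 2 fell in Per/Nr1d_KO against labelled Cry/Per_KO libraries. Among all genes, 7.86% were higher and 8.95% lower in the first of these comparisons, 11.3% and 9.35% in the second, and 15.2% and 13.8% in the last. The median log2 fold change of the list was -0.30, 0.17 and 0.59. Among the calls is Gpc3, which reached the mean of 100 only through the pair labelled Cry/Per/Nr1d_KO. Gpc2 reached it only through Per/Nr1d_KO. Both are counted among the 9 that fell in the first comparison and the 10 that rose in the last. In the second, Gpc2 is among the 5 that rose and Gpc3 among the 3 that fell. The rise of Gpc3 in the last rests on 16 against 3 counts. As the filter kept each of these genes through 1 line, their calls are no test. With the labels in doubt exchanged and both genes still counted, 9 rose and 1 fell in the first comparison, and 10 rose and 2 fell in Per/Nr1d_KO against Cry/Per/Nr1d_KO.

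Sulf1, a sulfatase that trims heparan sulfate, had 82.6 and 117 normalized counts for labelled Cry/Per/Nr1d_KO, 380 and 364 in labelled Cry/Per_KO, and 10045 and 10047 for Per/Nr1d_KO. It was thus 102-fold and 27.0-fold higher in Per/Nr1d_KO (adjusted p = 8.4e-18 and 4.1e-17), and its homologue Sulf2 was 4.34-fold and 9.36-fold higher. The glypican Gpc3, a heparan sulfate proteoglycan, had 553 and 508 normalized counts in labelled Cry/Per/Nr1d_KO libraries but 1.11 and 1.96 in labelled Cry/Per_KO and 6.34 and 8.68 for Per/Nr1d_KO. Its ratio between the labelled Cry/Per/Nr1d_KO and labelled Cry/Per_KO libraries was 340 (95% exact interval 116 to 1654, counting error only). Flrt3, a membrane protein that associates with FGF receptors, fell from 3265 and 3248 normalized counts in labelled Cry/Per/Nr1d_KO to 908 and 850 in labelled Cry/Per_KO and 72.2 and 101 in Per/Nr1d_KO libraries, 3.71-fold and 36.3-fold lower (adjusted p = 1.1e-11 and 7.0e-16). Gpc2 was at 105 and 103, 35.6 and 19.6, and 705 and 778 normalized counts, but it shares 55.6% of its exon bases with Gm43720 on the same strand and its level is uncertain.

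**Figure D3:**
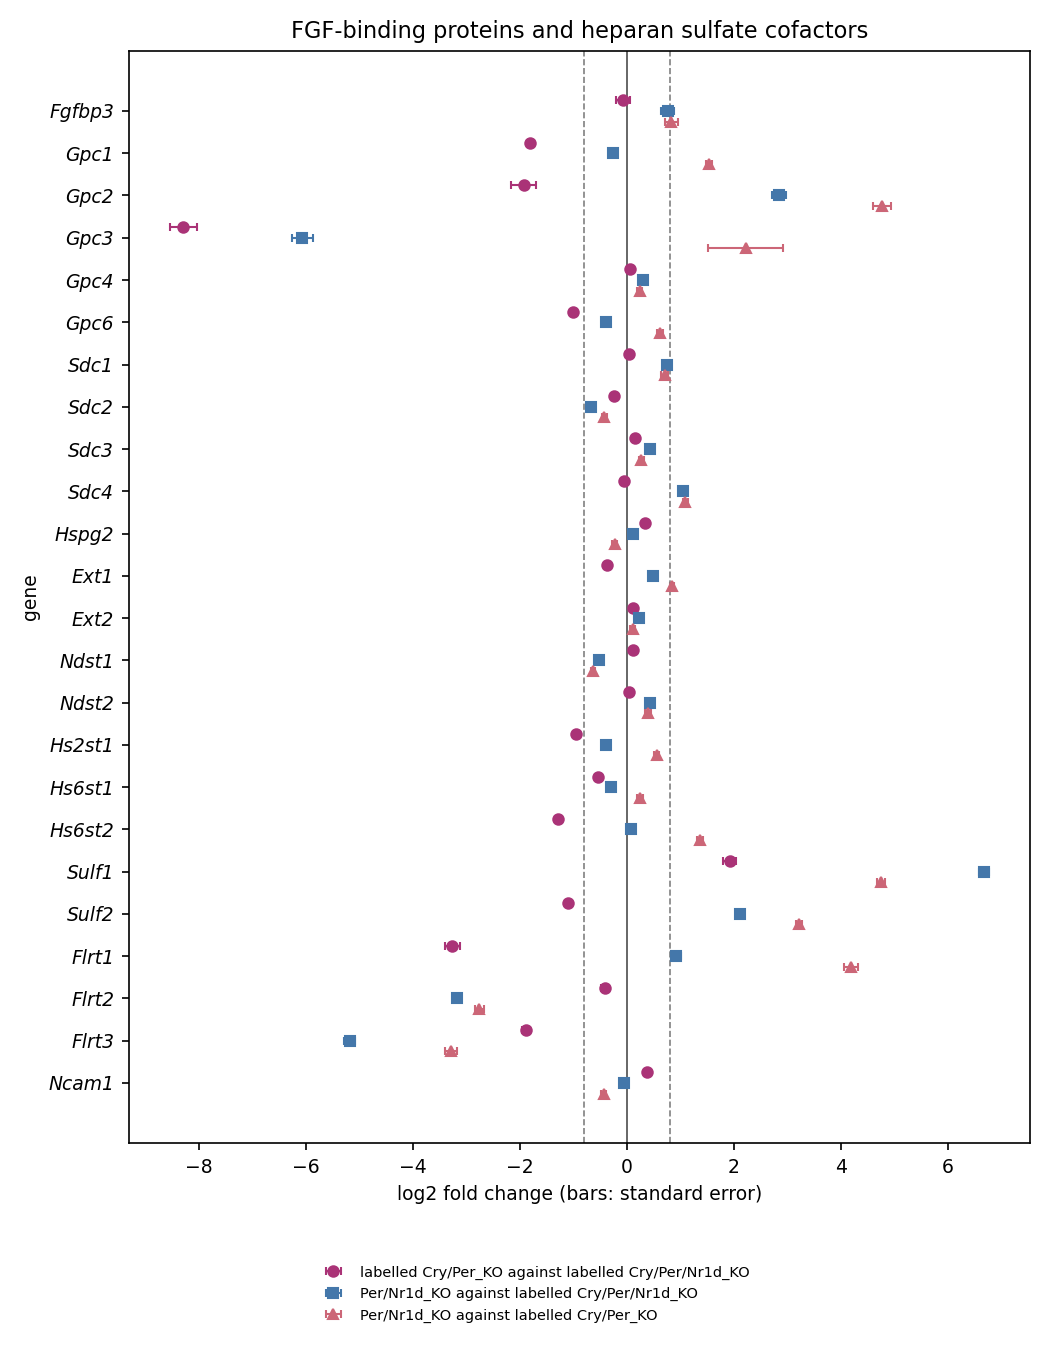
Log2 fold changes of the tested FGF-binding proteins and heparan sulfate cofactors in the 3 comparisons, with dashed lines at the fold limits of a 75% rise and its inverse. Sulf1 is at 6.68 and 4.76 in the comparisons of Per/Nr1d_KO, and Gpc3, whose fitted value in labelled Cry/Per_KO libraries rests on 3 counts, is at the low end of the comparison between the labelled pairs.

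Few genes of the receptor adaptors and the RAS-ERK cascade passed the fold limit. The 18 listed genes were all tested, and 1, 0 and 2 were called in the same order of comparisons, with medians of 0.15, 0.0044 and -0.15, where 16.8%, 20.7% and 29.0% of all genes were called. Without a limit on the fold, 14 of 18 had an adjusted p under 0.05 in the first comparison and 10 of 18 in the second. Of all genes, 76.4% and 75.8% did. Frs2, the docking protein of FGF receptors, was at 9205 to 10588 normalized counts in all libraries and was called in no comparison. The kinase gene Map2k1 was 2.20-fold higher in labelled Cry/Per_KO than in labelled Cry/Per/Nr1d_KO libraries (adjusted p = 2.0e-11) and 2.42-fold lower in Per/Nr1d_KO than in labelled Cry/Per_KO libraries, and the adaptor gene Shc1 was 1.77-fold higher in the latter comparison. Both genes lost their calls when chromosome medians were subtracted, which left 0 of 18 called in Per/Nr1d_KO against labelled Cry/Per_KO libraries. Between the labelled pairs 1 of 18 was called after the subtraction, which was Frs3 (0.71 before it, with a chromosome median of -0.12) and no longer Map2k1 (0.76 after it). Shc1 also lost its call without replicate 1 of either line (log2 fold change 0.79 without the labelled Cry/Per_KO library and 0.80 without that of Per/Nr1d_KO), which left 1 of 18 called.

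Feedback inhibitors were called in each comparison. Of 10 tested, 0 rose and 4 fell in labelled Cry/Per_KO against labelled Cry/Per/Nr1d_KO libraries, 0 rose and 4 fell in Per/Nr1d_KO against labelled Cry/Per/Nr1d_KO libraries, and 2 rose and 3 fell in Per/Nr1d_KO against labelled Cry/Per_KO libraries, with medians of -0.093, -0.57 and -0.56. Of all genes, 7.86%, 11.3% and 15.2% were higher and 8.95%, 9.35% and 13.8% lower in these comparisons. Spry1, 1 of the 4 that fell in each of the first 2 comparisons, reached the mean of 100 only through the pair labelled Cry/Per/Nr1d_KO. As the filter kept it through the line in which it is high, its calls are no test. With DESeq2 at an adjusted p under 1e-22, the called inhibitors came to 1 in the first comparison and 2 in the last. With the labels of the pairs in doubt exchanged, the first comparison would read 4 rose, Spry1 among them, and 0 fell. Per/Nr1d_KO against Cry/Per/Nr1d_KO would then read 2 rose and 3 fell. Spry4, a Sprouty inhibitor of receptor tyrosine kinase signalling, had 463 and 451 normalized counts for labelled Cry/Per/Nr1d_KO, 235 and 238 in labelled Cry/Per_KO, and 78.6 and 84.4 in Per/Nr1d_KO libraries, 1.94-fold and 5.57-fold lower than in the first pair (adjusted p = 5.9e-07 and 3.5e-11). Dusp6, a phosphatase of ERK, had 2787 and 2716, 1270 and 1457, and 1027 and 1034 normalized counts, taking the lines as before, 2.02-fold and 2.67-fold lower (adjusted p = 3.5e-09 and 4.5e-11).

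Both genes were thus highest in the pair labelled Cry/Per/Nr1d_KO, and their lines did not overlap. Spry1, on chromosome 3 like Fgf2, had 245 and 222 normalized counts for labelled Cry/Per/Nr1d_KO, 75.7 and 90.3 in labelled Cry/Per_KO, and 79.9 and 99.4 for Per/Nr1d_KO. With the chromosome medians subtracted, its log2 differences from labelled Cry/Per/Nr1d_KO libraries were -0.84 and -1.59, against -1.49 and -1.36 before. In the other direction, Spry2 was 1.78-fold higher in Per/Nr1d_KO than in labelled Cry/Per_KO libraries (adjusted p = 2.3e-08), a call that was lost without replicate 1 of labelled Cry/Per_KO (log2 fold change 0.80) and after subtraction of the chromosome medians (0.21). Dusp5, another ERK phosphatase, was 2.66-fold higher in the same comparison. Spry1 shares 24.4% and Dusp5 22.1% of its exon bases with a gene on the opposite strand.

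Transcription factors that respond to FGF signalling split in direction. Of 11 tested, 2 rose and 1 fell, 3 rose and 4 fell, and 4 rose and 4 fell in the 3 comparisons, with medians of -0.24, -0.081 and 0.49, where 16.8%, 20.7% and 29.0% of all genes were called in either direction. With the labels in doubt exchanged, the first comparison would read 1 rose and 2 fell, and Per/Nr1d_KO against Cry/Per/Nr1d_KO 4 rose and 4 fell. As labelled but with chromosome medians subtracted, 1 rose and 2 fell in the first comparison. The ETS factors Etv1, Etv4 and Etv5, commonly used as readouts of FGF signalling, were all lowest in Per/Nr1d_KO. Etv4 had 5370 and 5415 normalized counts for labelled Cry/Per/Nr1d_KO, 5761 and 6156 in labelled Cry/Per_KO, and 1314 and 1297 in Per/Nr1d_KO libraries, 4.13-fold and 4.57-fold lower (adjusted p = 1.7e-14 and 6.4e-15). Etv5 was 2.98-fold and 2.81-fold lower in Per/Nr1d_KO. Etv1 fell further, from 325 and 390 in labelled Cry/Per/Nr1d_KO and 774 and 638 in labelled Cry/Per_KO to 17.7 and 15.8 normalized counts for Per/Nr1d_KO. Etv4 and Etv5 were not called between the labelled Cry/Per_KO and labelled Cry/Per/Nr1d_KO libraries (log2 differences 0.14 and -0.09), where Etv1 was 1.98-fold higher, a call lost after subtraction of the chromosome medians (0.64). Ets2 and Ier3, an immediate early gene, were highest in Per/Nr1d_KO, where Ier3 was 3.97-fold higher than in labelled Cry/Per/Nr1d_KO libraries and Ets2 13755 and 13221 against 6703 and 6782 normalized counts.

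**Figure D4:**
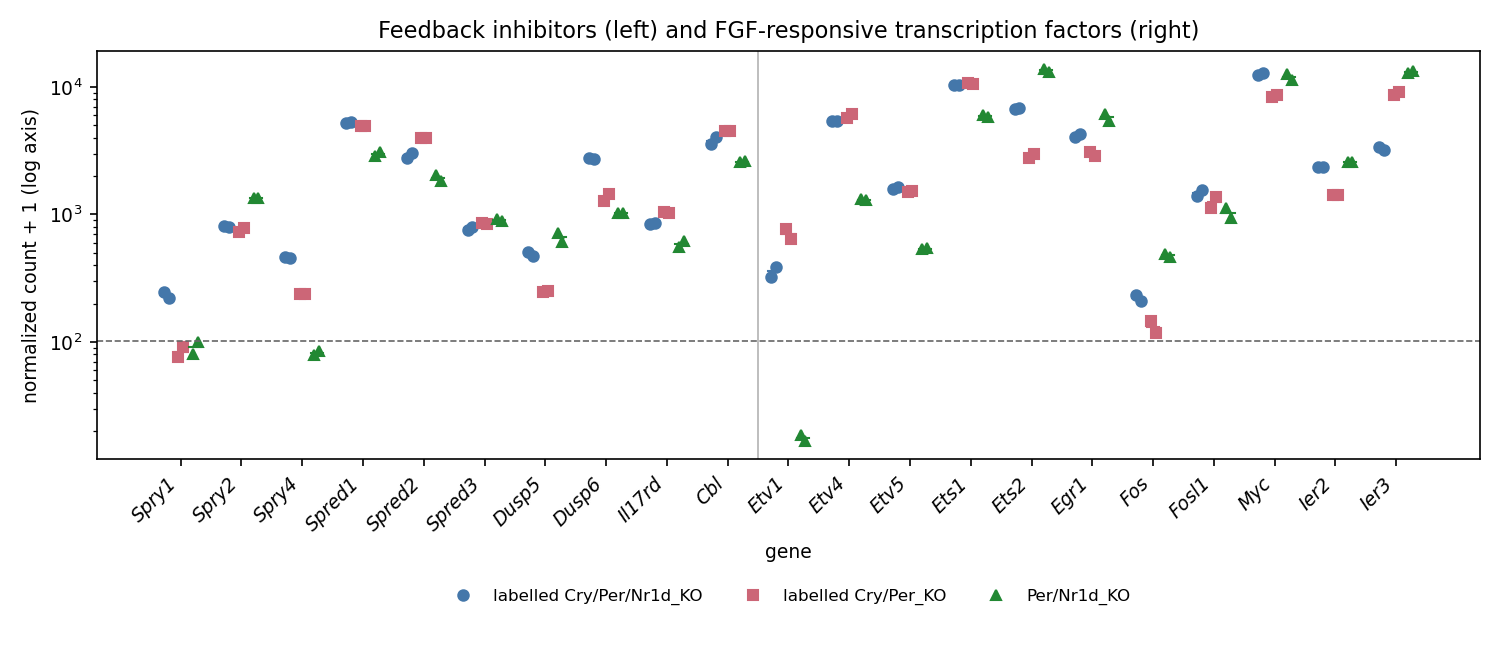
Normalized counts of genes that respond to FGF signalling in each of the 6 libraries, on a log axis, with 1 point per library and a dashed line at 100 normalized counts. Etv1, Etv4 and Etv5 are lowest in both Per/Nr1d_KO libraries, and Spry4 and Dusp6 are highest in both libraries labelled Cry/Per/Nr1d_KO.

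The label of the cells was checked against marker genes. Of 14 fibroblast markers, 11 had a mean of at least 100 normalized counts, with Fn1 (342580 to 656125) and Col1a1 (126050 to 627940) at the highest mean normalized counts, whereas Thy1 (0 to 6.21) and Lum (0 to 9.77) were at or near 0 and Dcn was low (43.4 to 139). Of these 11, 4 were higher and 5 lower in Per/Nr1d_KO in each of its comparisons, and 0 were higher and 3 lower in labelled Cry/Per_KO than in labelled Cry/Per/Nr1d_KO libraries. With the labels in doubt exchanged, the comparison between these pairs would read 3 higher and 0 lower. Of all genes, 11.3% were higher and 9.35% lower in Per/Nr1d_KO than in labelled Cry/Per/Nr1d_KO, 15.2% and 13.8% than in labelled Cry/Per_KO, and 7.86% and 8.95% in the comparison of the labelled pairs. Col3a1 was at 42810 and 43797 in Per/Nr1d_KO against 836 and 801 in labelled Cry/Per/Nr1d_KO and 289 and 296 in labelled Cry/Per_KO libraries. In the opposite direction, Pdgfra was 3.05-fold and 2.36-fold lower and Prrx1 2.28-fold and 3.80-fold lower in Per/Nr1d_KO than in labelled Cry/Per/Nr1d_KO and labelled Cry/Per_KO libraries. S100a4 was 7.11-fold and 3.22-fold lower, but it shares 51.7% of its exon bases with Gm42674 on the same strand and its level is uncertain. The summed level of 12 epithelial markers was 272 to 289.9 for labelled Cry/Per/Nr1d_KO, 34.4 to 54.5 in labelled Cry/Per_KO and 1213 to 1214 normalized counts in Per/Nr1d_KO libraries, and 2 of the 12 (Krt19 and Esrp2) had a mean of at least 100. These 2 genes carried most of the sum in Per/Nr1d_KO, with means of 671 and 383. Cdh1 (105 against 17.9), Cldn7 (15.0 against 1.44) and Krt8 (5.93 against 0) also had higher means there than in the pair labelled Cry/Per/Nr1d_KO. Esrp1 (0.395 against 147) and Epcam (22.4 against 29.5) had lower means there. Of 5 epithelial markers with a mean of at least 10, 3 were called higher and 1 lower in that comparison, where 13.4% and 13.1% of all genes were. Esrp1, the 1 called lower, reached that mean only through the pair labelled Cry/Per/Nr1d_KO. As the filter kept it through the line in which it is high, its call is no test. Endothelial markers summed to 49.0 to 138 and blood cell markers to 203 to 333 over all libraries, and Ptprc, which marks blood cells, was at 0 to 3.95.

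Esrp1 and Esrp2 encode the proteins that direct splicing of Fgfr2 to its IIIb form, the receptor of FGF7 and FGF10. Esrp2 had 24.9 and 24.4 normalized counts for labelled Cry/Per/Nr1d_KO, 3.34 and 2.95 in labelled Cry/Per_KO, and 390.4 and 376 in Per/Nr1d_KO libraries, and Esrp1 had 140.3 and 153, 12.2 and 8.84, and 0 and 0.789. The line with the lowest summed epithelial markers was also that with the lowest Fgfr2, while Fgfr2 was highest in labelled Cry/Per/Nr1d_KO and the marker sum, carried by Krt19 and Esrp2, in Per/Nr1d_KO. The part of these markers in the Fgfr2, Fgf7 and Fgf10 values was not tested, and counts per gene do not separate the IIIb and IIIc forms.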

How the data were processed

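RNA-seq of 3 MEF lines gave 6 libraries (2 per line) of strand-specific, single-end reads of 50 bases. According to the submitters' processing notes, STAR aligned the reads to mm10 and featureCounts assigned them to genes, and the authors deposited the resulting whole-number counts unnormalized. Whether strand was used and how multi-mapping reads were handled is not given in the sources used here. The authors also deposited DESeq2 1.22.2 tables with mean counts, log2 fold changes, standard errors and p-values for their own comparisons, and these were not used. Libraries were grouped by the genotype label.

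Counts were analysed with edgeR 4.0.16 (R 4.3.3, limma 3.58.1, Python 3.11.15). Testing was limited to the 11934 genes whose mean reached 100 normalized counts, in a single quasi-likelihood fit over all 6 libraries with TMM factors and 3 groups. Calls required an adjusted p under 0.05 (Benjamini-Hochberg, over all genes tested) and a rise of more than 75% or the same fold downwards. Low members were tested at a mean of at least 10. Totals ran from 53764390 to 85927236 counts and the common biological coefficient of variation was 0.0393. A floor of 3 counts was used against a count of 0, and floors and exact intervals (95%) cover counting error only. Log2 CPM values used a prior count of 2. Each SE was derived from the test, as the absolute log2 fold change divided by the square root of the quasi-likelihood F statistic. Symbols, positions and promoter sequences came from RefSeq (GRCm38.p6, the assembly of mm10), and exon lengths and overlaps from GENCODE vM21. The rule for named genes took the 10 members, of each other list the 4 called genes with the largest change in any comparison, and a set of pathway genes. The text prints most of these. Nr1d1, Arntl, Frs3, Epcam, Sulf2, Fgf15, Fgf23, Fgf11, Fn1, Pdgfra, Prrx1, Dcn, Thy1, Lum, Ptprc and Esrp1 are named beyond the rule and were chosen after their values were seen. The same holds for Cdh1, Cldn7, Krt8, Csf1r and Lyz2. A result for 1 other pathway gene is not reported here. The members and the gene lists were chosen with earlier results of these data known.

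Alternatives were DESeq2 1.42.0 at an adjusted p under 0.05 or under 1e-22, median-of-ratios size factors, other filters on low counts, no limit on the fold, fits of only the compared groups, a block for replicate number, each library left out in turn, and chromosome medians subtracted. The scripts were tested on simulated data with known changes.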

Additional observations from a re-analysis of the deposited data

How the results depend on the processing

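With 2 libraries per line every SD rests on 2 values, and genes near 3 counts per library cannot be compared beyond counting error. Of 1476 alternative values over 99 results, 1410 kept their direction and their side of the threshold, 39 lost and 19 gained the call, and 8 changed sign. Many of these results are for genes named because their called changes were large in these data, which favours keeping the call. Without a limit on the fold, an uncalled gene with an adjusted p under 0.05 gains a call by construction. The tally is therefore a description only. Comparisons are given in the order labelled Cry/Per_KO against labelled Cry/Per/Nr1d_KO, Per/Nr1d_KO against labelled Cry/Per/Nr1d_KO, and Per/Nr1d_KO against labelled Cry/Per_KO. The genes called (2006, 2468 and 3457 of 11934) became 3808, 4576 and 5590 of 20375 without a filter on low counts. At a mean of at least 10 they were 3311 and 3912 of 14770 (the first 2 comparisons). Without a limit on the fold they were 9118, 9042 and 9793 of 11934. With DESeq2 at an adjusted p under 1e-22 they were 1103 in the first comparison. The members called (1, 2 and 3 of 5) became 5, 4 and 6 of 10 without a filter. At a mean of at least 10 they were 4, 4 and 5 of 8, where 22.4%, 26.5% and 33.8% of all genes were called. Without a limit on the fold they were 4 and 5 of 5 (the first 2 comparisons), against 76.4% and 75.8% of all genes. With DESeq2 at 1e-22, 1 member was called in the second comparison, where Fgfr3 was lost. Leaving out each library in turn gave 1998 to 2042, 2451 to 2519 and 3434 to 3496 genes called, and again 1, 2 and 3 members.

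Subtracting chromosome medians changed the sign of Shc1 (0.13) in the first comparison, Map2k1 in the second (0.33), and Shc1 (-0.053) and Spry1 (-0.75) in the last. Leaving out 1 library changed the sign of differences that were not called. These were Fgf2 in the second comparison (-0.18 to 0.067), and Spry1 (-0.060 to 0.27) and Fgf18 (-1.10 to 0.057) in the last. The cause was not tested.

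With the replicate number as a block, 2002, 2468 and 3457 genes and 1, 2 and 3 members were called. The numbers do not pair the libraries, since the replicate differences of the lines correlated at -0.21, -0.10 and -0.024 across genes, and no call of a named gene changed under the block.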
